A study of Mus musculus with 12 samples.

Results

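Interferon regulatory factors (IRFs) and signal transducers and activators of transcription (STATs) were followed through 9 genes, Irf1, Irf2, Irf3, Irf5, Irf7, Irf8, Irf9, Stat2 and Stat3. Every array probe whose transcript accession belongs to 1 of these genes was taken, which gave 11 probes of the 39429 on the array, where 20659 genes have a symbol. Irf1 and Stat3 have 2 probes each and the other 7 genes have 1. A probe was tested if all 3 arrays of some group put it well above background, which held for 10 of the 11. The Irf8 probe was left out by this filter.

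The study hybridised RNA of C2C12, an established line of mouse myoblasts, to 12 Agilent arrays of 1 colour, 3 for each of 4 transfections. All cells were of this 1 line, were grown in high-glucose DMEM with fetal bovine serum, and were collected 72 h after transfection. The groups differ in what was transfected: a negative control of unstated kind, pcDNA3.1 (a mammalian expression plasmid, in arrays that the titles call pat1), pcDNA3.1-MEG3 (titled as overexpression of the long non-coding RNA MEG3) and siRNA (titled as its knockdown). Both plasmid groups contain plasmid DNA by their labels. For the other groups the labels name none.

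IRFs share a DNA-binding domain that recognises interferon-stimulated response elements, and STATs are latent factors that Janus kinases phosphorylate at cytokine receptors. After a type I interferon binds its receptor, STAT2, a partner STAT and IRF9 form the complex ISGF3, which turns on antiviral genes, and Irf7, Irf9 and Stat2 are themselves among the genes that interferon induces. STAT3 works mainly downstream of the interleukin 6 family, and in muscle precursor cells that pathway is known for its part in growth and differentiation.

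The promoter windows of the 3 members whose levels differed most between groups are given first. Stat2 and Irf9 were called lower in siRNA against the plasmids. Irf7 passed the filter only through the pcDNA3.1-MEG3 arrays, so it had to differ and its lower level there is a description. Each window runs from 250 bases before to 50 bases after an annotated start, in RefSeq sequence of build GRCm38.p6, read 5' to 3' along the gene. Stat2 lies at chr10:128270248-128270547 on the plus strand, the 2 windows of Irf9 at chr14:55603735-55604034 and chr14:55604329-55604628 on the plus strand, and Irf7 at chr7:141266375-141266674 on the minus strand. Capitals mark a match to the core of the interferon-stimulated response element, GAAANNGAAA on either strand (TTTCNNTTTC when read from the other strand).
Stat2 promoter: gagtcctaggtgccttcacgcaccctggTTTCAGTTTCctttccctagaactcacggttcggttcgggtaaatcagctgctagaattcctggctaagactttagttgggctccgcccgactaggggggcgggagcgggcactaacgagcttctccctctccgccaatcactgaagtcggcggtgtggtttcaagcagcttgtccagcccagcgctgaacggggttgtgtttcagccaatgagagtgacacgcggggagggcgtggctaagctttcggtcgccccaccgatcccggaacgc
Irf9 promoter, upstream start: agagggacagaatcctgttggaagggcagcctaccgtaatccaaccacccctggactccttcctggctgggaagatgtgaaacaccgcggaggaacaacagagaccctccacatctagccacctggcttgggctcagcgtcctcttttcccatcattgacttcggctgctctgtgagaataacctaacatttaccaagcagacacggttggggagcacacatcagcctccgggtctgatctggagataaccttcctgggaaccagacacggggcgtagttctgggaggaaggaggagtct
Irf9 promoter, downstream start: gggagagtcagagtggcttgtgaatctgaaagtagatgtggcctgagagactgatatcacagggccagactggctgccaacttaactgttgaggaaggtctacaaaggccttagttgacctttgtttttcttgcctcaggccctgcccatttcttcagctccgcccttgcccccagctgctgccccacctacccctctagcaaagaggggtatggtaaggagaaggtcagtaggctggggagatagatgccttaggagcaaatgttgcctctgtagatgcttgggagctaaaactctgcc
Irf7 promoter: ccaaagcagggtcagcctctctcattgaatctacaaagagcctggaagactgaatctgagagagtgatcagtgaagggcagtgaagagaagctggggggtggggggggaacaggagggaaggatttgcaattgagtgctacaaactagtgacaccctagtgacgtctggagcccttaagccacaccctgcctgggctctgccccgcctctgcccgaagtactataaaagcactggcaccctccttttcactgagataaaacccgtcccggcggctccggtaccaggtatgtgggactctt

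All 9 members had a window, 12 windows in all. The element's core was found in the windows of 2 members, Stat2 and Irf2. In Stat2 the match TTTCAGTTTC lay 222 to 213 bases before the start, on the reverse strand. Neither window of Irf9 nor that of Irf7 held these letters. Of 32851 mouse promoter windows of this length, 1131 (3.44%) held the core. The second motif searched was the gamma-activated site, TTCNNNGAA, which reads the same on both strands and was found in 2726 windows (8.30%). It was present in 3 members, Irf1, Irf2 and Irf8, and its matches did not overlap those of the first motif. The windows of Irf2 (chr8:46739495-46739794, plus strand) and Irf1 (chr11:53769764-53770063, plus strand) are shown as the other windows with matches among the members that were tested. Capitals mark the first motif at 241 to 232 bases before the start of Irf2, and the second at 224 to 216 bases before it and at 90 to 82 bases before the start of Irf1.
Irf2 promoter: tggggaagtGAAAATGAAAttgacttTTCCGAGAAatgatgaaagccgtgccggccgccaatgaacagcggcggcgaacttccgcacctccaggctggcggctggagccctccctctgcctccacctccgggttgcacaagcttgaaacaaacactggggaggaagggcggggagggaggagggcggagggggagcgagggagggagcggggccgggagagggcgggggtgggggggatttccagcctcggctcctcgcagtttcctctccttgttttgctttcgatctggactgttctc
Irf1 promoter, upstream start: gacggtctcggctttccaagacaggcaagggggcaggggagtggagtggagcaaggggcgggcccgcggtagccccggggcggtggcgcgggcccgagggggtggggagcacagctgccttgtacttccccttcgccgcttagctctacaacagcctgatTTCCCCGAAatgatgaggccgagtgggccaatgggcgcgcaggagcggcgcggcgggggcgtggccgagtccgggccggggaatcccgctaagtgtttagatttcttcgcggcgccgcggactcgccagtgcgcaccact

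Several properties of the arrays bear on the values below. Between 24454 and 29929 probes per array were well above background, the siRNA arrays having the fewest (24454 to 27055, against 27278 to 29929 on the others), and 0 spots were saturated. Replicates 1 and 3 of the transfected groups other than the negative control correlated at 0.910 to 0.971 in the deviations of single spots, against a median of 0.0174 over pairs of arrays from different groups, and each such pair was averaged into 1 sample. In the negative control the same pair had a spot correlation of 0.457, like the 0.459 and 0.503 of its pairs with replicate 2, but differed by 0.716 times the spot noise and was averaged too, while replicate 2 stood 4.37 and 3.91 times that noise away. Replicate 2 of the plasmid groups also differed from the others by less than the spot noise (0.762 to 0.781 times) and was kept as a sample, at spot correlations of 0.486 to 0.505. Each group thus has 2 samples, and precision is limited by this number. With each plasmid group counted as 1 sample, a setting added after seeing the data, limma called 0 member probes in all 4 comparisons, with 1 to 3 at an unadjusted p under 0.05. The spread then comes from the negative control and siRNA alone, and the lone plasmid samples are assumed to vary like those. By the filter, a probe seen in 1 group alone had to differ, so that counts and medians over the tested members are a description. Separate cultures are not stated for the replicates, and the spread behind every p-value may therefore be technical. Of the 3 slides, 1 held the negative control, 1 the plasmid groups together and 1 the siRNA group. Outside the comparison between plasmids, slide and group cannot be told apart. The targeted gene went against the plasmid labels. The Meg3 probe A_51_P455997 gave a signal with a mean log2 level of -2.43 on the 3 arrays labelled pcDNA3.1, all well above background. The same held for 0 of 3 arrays labelled pcDNA3.1-MEG3, 1 of 3 of the negative control and 0 of 3 of siRNA. A second Meg3 probe was likewise well above background only on the 3 arrays labelled pcDNA3.1. Directions in every comparison that uses a plasmid group therefore hold for the labels only.

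All levels are log2 of the processed spot signal minus the array's 75th percentile, so that 0 is a probe as bright as that percentile. Levels are compared between groups for 1 probe, not between probes. Differences were tested with limma over all probes past the filter, and a probe was called at a Benjamini-Hochberg adjusted p under 0.05. Errors of levels are SDs over n = 2 samples and errors of differences are SEs of the fit. In bulk RNA a lower share of expressing cells and less RNA per cell cannot be told apart.

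Stat2 and Irf9, which with a partner STAT make up ISGF3, were both higher on the plasmid arrays than on the others. Stat2, the subunit that carries the activation domain, had levels of 1.91 and 1.55 in the negative control samples, in the order of the average of replicates 1 and 3, then replicate 2. On the pcDNA3.1 arrays the levels of Stat2 were 3.76 and 3.83, on pcDNA3.1-MEG3 3.82 and 3.80, and on siRNA 1.93 and 1.97. The plasmid samples did not overlap the other samples, the plasmid groups overlapped each other, and both siRNA samples lay above both negative control samples. On single arrays they overlapped, since Stat2 was at 2.01 on negative control replicate 1 and at 1.90 to 1.97 on siRNA. Irf9, the DNA-binding subunit, stood at 0.71 and 0.0032 in the negative control and at 3.02 and 2.96 on pcDNA3.1. On pcDNA3.1-MEG3 it was at 2.79 and 2.93, and on siRNA at 1.07 and 0.75. There was no overlap between plasmid and other samples of Irf9. The negative control samples of Irf9 were the most spread, by an SD of 0.50.

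Irf7, the factor that amplifies interferon alpha production, had another pattern. All 3 pcDNA3.1-MEG3 arrays and 2 of 3 pcDNA3.1 arrays had its probe well above background, as did 0 of 3 arrays in each of the other groups. The levels were -3.23 and -3.35 on pcDNA3.1-MEG3 and -6.17 and -5.80 on pcDNA3.1. In the negative control the signal was -6.63 and -6.88 and on siRNA -7.09 and -7.78, values at the background. High Irf7 was thus seen on the arrays labelled pcDNA3.1-MEG3, whose samples lay above all others.

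**Figure D1:**
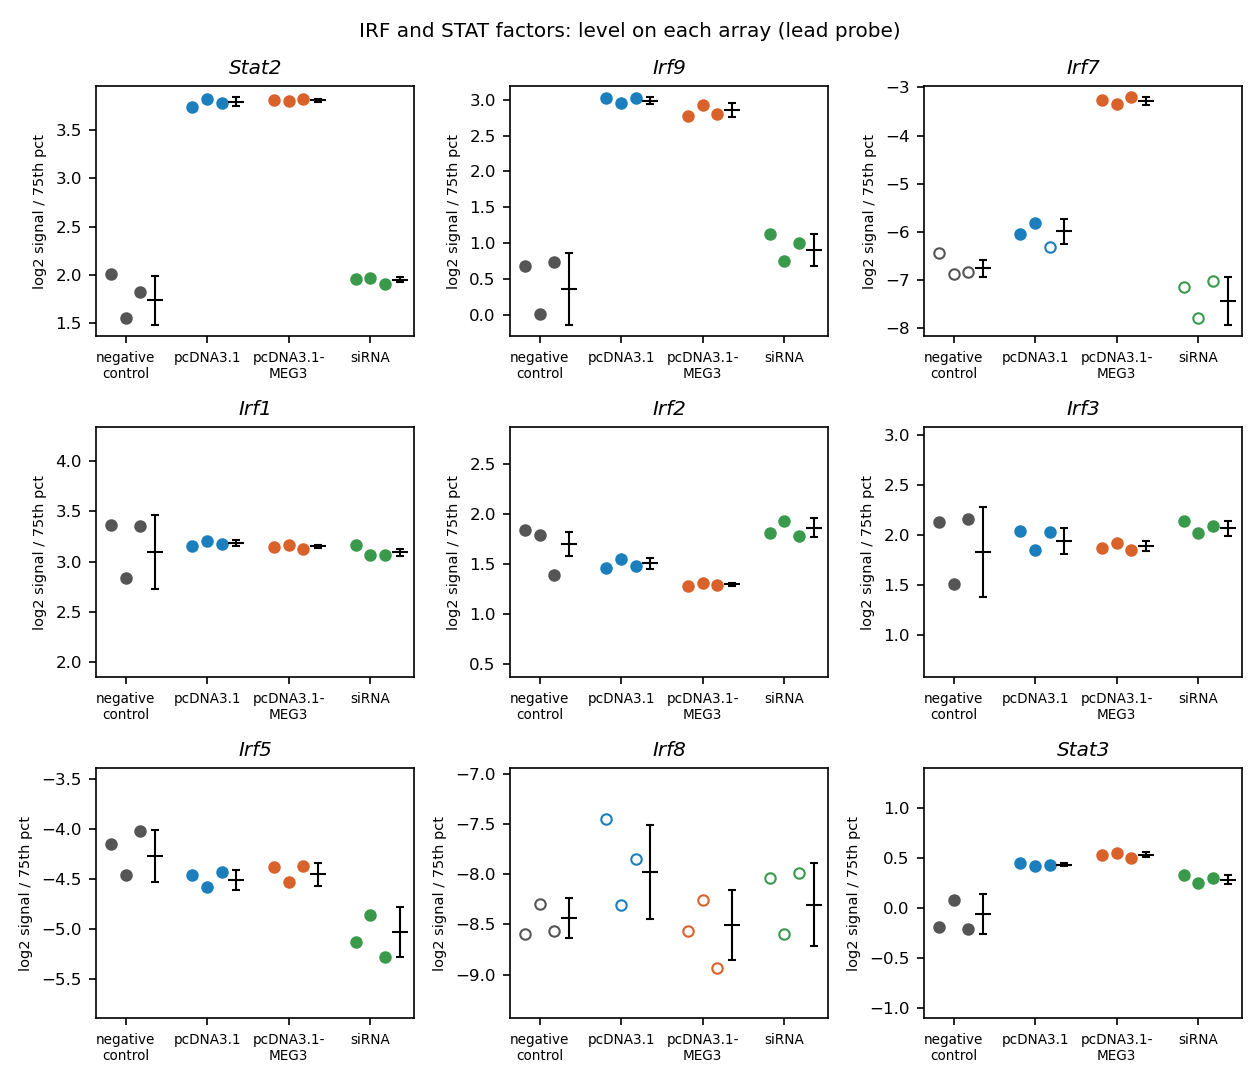
Log2 level of the lead probe (the brightest of a gene) of each of the 9 genes on each of the 12 arrays, in 4 groups. The vertical axis is the log2 signal relative to the array's 75th percentile and differs between panels, filled points were well above background, open points were not, and the bar is the mean ± SD of the 2 samples of a group. Stat2 and Irf9 are high in both plasmid groups, and Irf7 is high on the 3 pcDNA3.1-MEG3 arrays.

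The arrays labelled pcDNA3.1 were compared with the negative control as labelled, although by Meg3 they go against that label. Of the 8 member genes tested, 2 were called, both higher, against 17.1% of all probes tested called (10.5% higher and 6.56% lower). Stat2 rose by 2.06 ± 0.16 (4.16-fold, adjusted p = 0.00189) and Irf9 by 2.63 ± 0.26 (6.21-fold, adjusted p = 0.00385). Both were called in 16 of 17 other settings, including those without either negative control sample, with differences of 1.61 to 2.24 for Stat2 and 2.19 to 2.99 for Irf9. The exception counted each plasmid group as 1 sample, where the sizes were the same, the adjusted p was 0.150 for Stat2 and 0.170 for Irf9, and limma called 0 of all probes, with 4169 at an unadjusted p under 0.05. Of the calls over all probes, 61.6% were higher, and this share was 18.6% with median centring and 45.0% with quantile normalisation. Those scalings moved the median difference over all probes from 0.19 to -0.25 and to 0.07. The median over the member genes was 0.30.

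The other 6 member genes did not pass. Stat3 came nearest by its brighter probe, with levels of -0.20 and 0.08 in the negative control and 0.44 and 0.42 on pcDNA3.1. The samples did not overlap, and the difference was 0.49 ± 0.15 (adjusted p = 0.0712). It was called in 7 of 17 other settings, among them those without negative control replicate 2 (0.63) and without its replicates 1 and 3 (0.35). Irf7 differed by 0.77 ± 0.27 (at least 1.56-fold, adjusted p = 0.104). The remaining differences were 0.09 for Irf1, -0.19 for Irf2, 0.11 for Irf3 and -0.24 for Irf5, with adjusted p of 0.348 to 0.756. Those of Irf1 and Irf3 turned to -0.35 and -0.34 with median centring, and to -0.17 and -0.20 without negative control replicate 2. Irf2 was called lower with median centring (-0.64, adjusted p = 0.0485), and Irf5 with quantile normalisation (-0.73, adjusted p = 0.0374) and the authors' series table (-0.74, adjusted p = 0.0378). Without replicates 1 and 3 of the negative control Irf1 was called higher, by 0.36 (adjusted p = 0.0277).

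In the comparison of siRNA with both plasmid groups, 4 member genes were called, 1 higher and 3 lower, against 19.3% of all probes tested (10.4% higher and 8.89% lower). The 3 lower ones were Stat2, Irf9 and Irf7. Stat2 fell by 1.85 ± 0.14 on the log2 scale (adjusted p = 0.00106) and Irf9 fell by 2.02 ± 0.22 (adjusted p = 0.00373). Irf7 fell by 2.80 ± 0.23 (adjusted p = 0.00146), which is at least 3.37-fold because its siRNA signal was not above background. Irf7 had passed the filter on dim probes only through the pcDNA3.1-MEG3 arrays, where it is high, so it had to differ and its values here are a description. The plasmid mean of Irf7 joins 2 unlike groups, at -5.99 on pcDNA3.1 and -3.29 on pcDNA3.1-MEG3.

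The calls of Stat2 and Irf9 held in 18 of 19 other settings and were lost with each plasmid group as 1 sample (adjusted p = 0.0807 and 0.120). Irf7 had to differ by the filter, so its calls in other settings are a description too and lend no support. It was not called with each plasmid group as 1 sample, nor with normexp background correction (-0.69, adjusted p = 0.0563). Irf2, known as an antagonist of Irf1 at shared sites, was the member called higher. Its levels were 1.80 and 1.93 on siRNA, 1.47 and 1.55 on pcDNA3.1 and 1.29 and 1.31 on pcDNA3.1-MEG3, without overlap. The difference of 0.46 ± 0.12 (1.37-fold, adjusted p = 0.0473) was not called in any of the 6 fits that left out 1 sample, with adjusted p of 0.103 without siRNA replicates 1 and 3 to 0.189 without siRNA replicate 2. In all, Irf2 was called in 7 of 19 other settings. The median of the member genes was -0.37, against -0.12 over all probes. Of all calls 53.9% were higher, 77.0% with median centring, 67.2% with quantile normalisation and 65.3% with normexp.

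**Figure D2:**
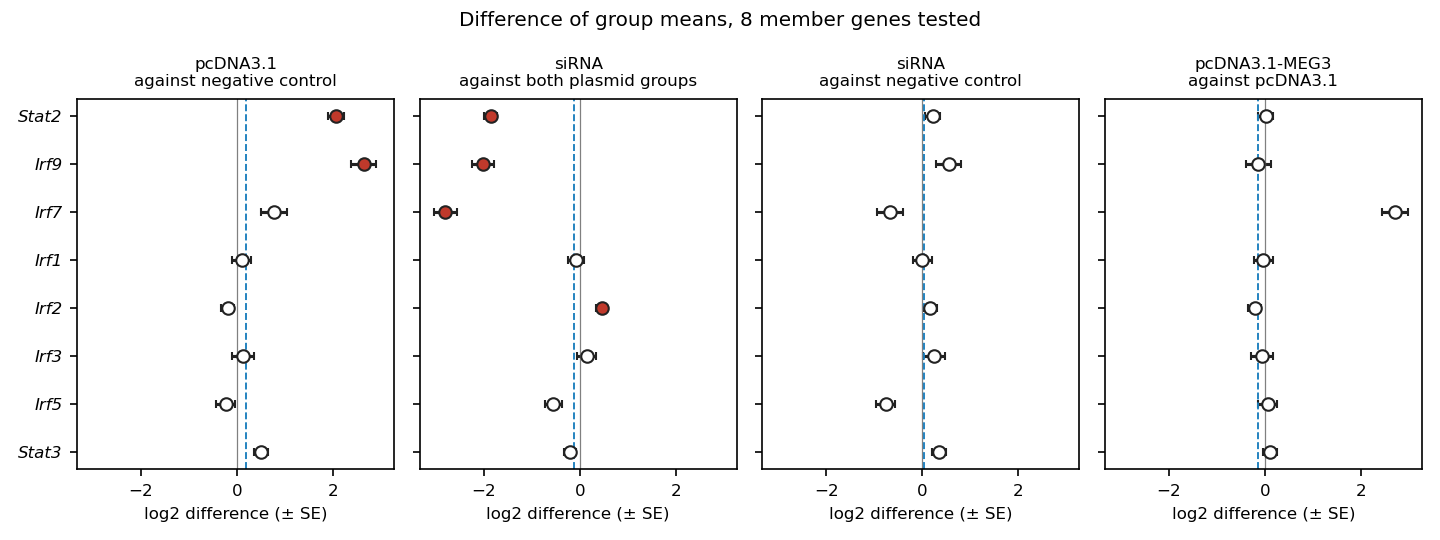
Difference of group means on the log2 scale, with the SE of the fit, for the 8 member genes tested in 4 comparisons. Filled points were called at an adjusted p under 0.05 and the dashed line is the median over all probes tested. Stat2 and Irf9 are called in opposite directions in the first 2 panels, and the Irf7 difference of 2.70 between the plasmid groups is drawn open because it was not called.

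The siRNA arrays, titled as knockdown, were compared with the negative control. Meg3 was at or near background in both groups, so that these arrays show no knockdown of it. No member gene was called, against 12% of all probes tested (7.29% higher and 4.73% lower), and 2 member probes had an unadjusted p under 0.05 in the limma fit. Irf5, a factor of Toll-like receptor signalling, had the smallest adjusted p, 0.0632. Its levels were -4.09 and -4.46 in the negative control, -4.45 and -4.58 on pcDNA3.1, -4.38 and -4.54 on pcDNA3.1-MEG3, and -5.21 and -4.86 on siRNA. Both siRNA samples lay below all others, and the difference from the negative control was -0.76 ± 0.20. It was called in 9 of 17 other settings, among them the fit without siRNA replicate 2 (adjusted p = 0.0480), with a difference of -0.95 to -0.08 over them, and with normexp it was 0.05 in the comparison with the plasmids.

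The differences of ISGF3 subunits between siRNA and the negative control were 0.21 ± 0.16 for Stat2 (adjusted p = 0.445) and 0.55 ± 0.26 for Irf9 (adjusted p = 0.228). Without replicates 1 and 3 of the negative control 4 member probes were called, among them Irf9 (0.91, adjusted p = 0.0232), Stat2 (0.39, adjusted p = 0.0266) and Irf3 (0.55, adjusted p = 0.0322). Without its replicate 2 the calls were Irf5 (-0.95, adjusted p = 0.0274) and Stat3 (0.49, adjusted p = 0.0167). By its brighter probe Stat3 differed by 0.34 ± 0.15 (adjusted p = 0.191). By its second probe it differed the other way, by -0.73 ± 0.37 (adjusted p = 0.262). Irf7 had a signal at background in both groups. The median over members was 0.19, against 0.05 over all probes. The split of all calls, 60.7% higher, was 38.8% with median centring.

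In the overexpression comparison by title, pcDNA3.1-MEG3 against pcDNA3.1 as labelled, 0 of 8 member genes were called by limma, against 0.00676% of all probes tested, and 2 member probes had an unadjusted p under 0.05. With 2 called probes in the whole table, both lower, this comparison had few calls to give. Irf7 had the largest difference of the members, 2.70 ± 0.27 (at least 6.49-fold, adjusted p = 0.0925), and ranked 19 by p among all probes. It passed the filter only through the pcDNA3.1-MEG3 arrays, the brighter side of this comparison, so it had to differ and these values are a description. With no filter on dim probes its adjusted p was 0.190. Its adjusted p was 0.000139 with the 12 arrays as 12 samples, 0.859 without pcDNA3.1-MEG3 replicate 2 and 1.00 with each plasmid group as 1 sample, and it was called in 5 of 17 other settings. Within the scans of the plasmid slide it was 2.62 (2 arrays of each group) and 3.09 (1 array of each), and 2.78 with scan as a block (adjusted p = 0.000683). That fit, the replicate block (adjusted p = 0.00110) and the fit on 12 arrays count the 2 scans of 1 hybridisation apart. With normexp the difference was 1.13 (adjusted p = 0.117). Stat2 differed by 0.02 ± 0.16 and Irf9 by -0.13 ± 0.26 (adjusted p = 0.966 and 0.839). The second probe of Stat3 passed the background flag on all 3 pcDNA3.1-MEG3 arrays and 1 of 3 pcDNA3.1 arrays and differed by 1.81 ± 0.37 (at least 3.14-fold, adjusted p = 0.170), while the brighter probe differed by 0.10 ± 0.15. This second probe, too, passed the filter only through the pcDNA3.1-MEG3 arrays. The median over members was -0.0098, against -0.14 over all probes.

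The remaining members varied little. Irf1, which interferon gamma induces through STATs in many cells, had levels of 3.36 and 2.83 in the negative control, 3.17 and 3.21 on pcDNA3.1, 3.14 and 3.16 on pcDNA3.1-MEG3 and 3.12 and 3.07 on siRNA. Its group means spanned 0.09, less than the SD of 0.37 between its negative control samples. Irf3, a constitutive factor activated by phosphorylation, was at 2.14 and 1.51 in the negative control and between 1.84 and 2.11 in the other samples, a span of group means of 0.24. Irf1 and Irf3 were not called in any of the 4 comparisons with all samples. The second Irf1 probe, flagged well above background on 8 arrays, was not called either. It passed the filter only through the pcDNA3.1-MEG3 arrays. Between the plasmid groups it differed by 0.88 ± 0.55, where the brighter probe differed by -0.04. On siRNA it differed by -0.66 from the plasmids and by 0.18 from the negative control. For pcDNA3.1 against the negative control its difference was 0.40. Irf8, known from macrophage and B cell development, was not well above background on any of 12 arrays.

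Over the 4 groups the lead probes of the tested members spanned 4.15 for Irf7, 2.63 for Irf9, 2.07 for Stat2, 0.76 for Irf5, 0.59 for Stat3, 0.56 for Irf2, 0.24 for Irf3 and 0.09 for Irf1, as differences of group means. For Stat2 and Irf9 the groups fell into 2 levels, plasmids and non-plasmids, and neighbours within each level were not called apart. For Irf7 the span is to a group at background.

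The brighter Stat3 probe was printed on 10 spots of every array, which shows the measurement error within an array. With 9 or 10 spots used per array, the SD between spots was 0.0571 to 0.117. Single spots ran from -0.34 to 0.18 on the negative control arrays, from 0.28 to 0.60 on pcDNA3.1, from 0.41 to 0.85 on pcDNA3.1-MEG3 and from 0.10 to 0.52 on siRNA. Every used negative control spot was below every used pcDNA3.1 spot, while siRNA spots overlapped those of the other 3 groups. Spots left out as outliers included those of pcDNA3.1 replicates 1 and 3, at -0.34 and -0.30. Spots are not replicates, and the spread between negative control samples (0.20, SD) exceeded the SD between spots on each array.

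**Figure D3:**
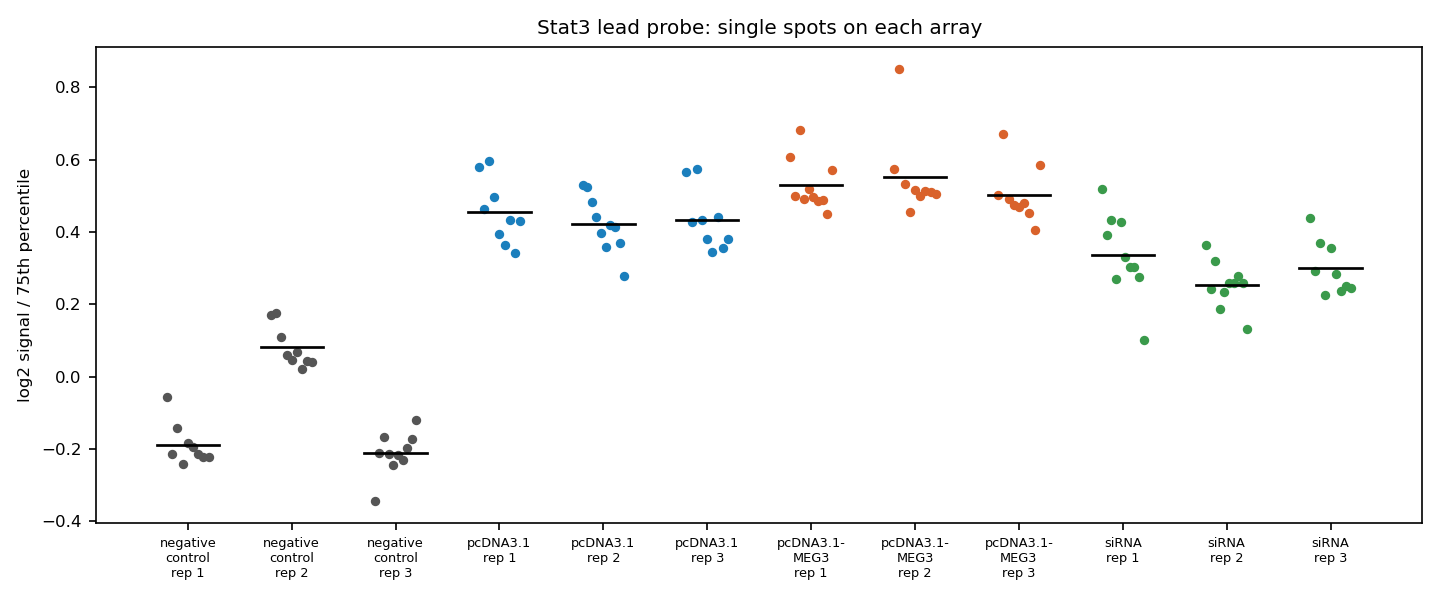
Log2 level of every used spot of the brighter Stat3 probe on each of the 12 arrays, in 4 groups. The vertical axis is the log2 signal relative to the array's 75th percentile, points are single spots and lines are array means. Spots of the negative control lie between -0.34 and 0.18, below those of both plasmid groups.

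The upstream genes were read from lists of ligands, receptors, and kinases with adaptors. Of 15 ligand genes tested, 3 were called between pcDNA3.1 and the negative control, a share near the 17.1% of all probes. Il6, a cytokine that signals through STAT3, rose by 1.14 ± 0.16 (adjusted p = 0.0112) and Il10 by 1.08 ± 0.16 (adjusted p = 0.0127), whereas Ifna5, an interferon alpha gene, fell by 0.95 ± 0.19 (adjusted p = 0.0243). Interferon alpha genes are near-identical copies, so that the signal of the Ifna5 probe is uncertain. In siRNA against the plasmids Ifna5, Lif and Cntf rose (by 1.20, 1.43 and 0.79) and Il10 fell by 0.65. These 3 risen and 1 fallen of 15 stand beside 10.4% and 8.89% of all probes. Against the negative control, siRNA arrays had Il6 risen by 0.83 and Lif, another cytokine of the interleukin 6 family, by 1.28. Only these 2 of 15 were called there, beside 12% of all probes. Ifnb1, the interferon beta gene, did not pass the filter on dim probes.

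Among 11 receptor genes tested, Ifngr1, the ligand-binding chain of the interferon gamma receptor, fell by 1.13 ± 0.20 in pcDNA3.1 against the negative control (adjusted p = 0.0179) and rose by 0.93 in siRNA against the plasmids. Ifngr2, the second chain, rose by 0.43 in the latter. The receptor calls, 1 and 2 of 11, stand beside 17.1% and 19.3% of all probes. The chains of the type I interferon receptor, Ifnar1 and Ifnar2, were not called in any comparison. Of 15 kinases and adaptors, the called ones were Traf6 (0.57, pcDNA3.1 against the negative control), Irak1 (0.75 in siRNA against the negative control and 0.56 against the plasmids), Irak4 (-0.74) and Jak3 (-2.05, at least 2.43-fold lower), both in siRNA against the plasmids. Jak3 passed the filter only through the plasmid arrays, where it is high, so its lower level on siRNA is a description. Jak1 and Tyk2, the kinases bound to the type I receptor, were not called. These counts, 1 of 15, 1 of 15 and 3 of 15, are near or below the shares of all probes called (17.1% in pcDNA3.1 and 12% in siRNA against the negative control, and 19.3% in siRNA against the plasmids).

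Downstream of ISGF3, the interferon target list moved with Stat2 and Irf9. Of 49 target genes tested, 39 rose and 0 fell in pcDNA3.1 against the negative control, with a median difference of 2.40 against 0.19 over all probes, and 41 fell and 0 rose in siRNA against the plasmids, with a median of -1.87 against -0.12. Over all probes 10.5% were called higher and 6.56% lower in the first comparison, and 10.4% and 8.89% in the other. These comparisons share the pcDNA3.1 samples. With each plasmid group as 1 sample the counts were 0 and 13, where 0 and 213 of all probes were called. Oas2, an activator of RNase L, had a mean level of 2.48 ± 0.04 on pcDNA3.1. No negative control array (0 of 3) had it well above background, and it was at least 577-fold lower there (adjusted p = 4.53e-05). Oas1a, of the same family, was at 3.02 ± 0.26 on pcDNA3.1 and at least 507-fold lower in the negative control. The siRNA arrays had Oas2 at -4.34 ± 0.25 and Oas1a at -3.18 ± 0.06, and relative to the plasmid mean Oas2 fell by 6.85 and Oas1a fell by 6.40.

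Interferon targets also differed between siRNA and the negative control, where 16 rose and 2 fell (median 0.30), against 7.29% and 4.73% of all probes. Oas2 rose at least 5.11-fold and Rsad2, which makes an antiviral nucleotide, at least 4.72-fold. Ccl5 (-1.71 ± 0.22), a chemokine, and Psmb8 (-0.73 ± 0.15), a subunit of the immunoproteasome, were the 2 that fell, and were chosen for naming after their values were seen. The count of called targets was 2 both with the compared groups fitted alone and with each plasmid group as 1 sample. Each of these settings called 188 of all probes, against 3552 in the fit of all 8 samples. The count was higher with either negative control sample left out. None of the 49 was called between the plasmid groups with all samples, against 10 with 12 arrays as 12 samples and 29 with scan as a block. Those 2 settings called 4379 and 13908 probes in all, of 29611 past the filter. In pcDNA3.1 against the negative control the count was lower with either pcDNA3.1 sample left out.

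**Figure D4:**
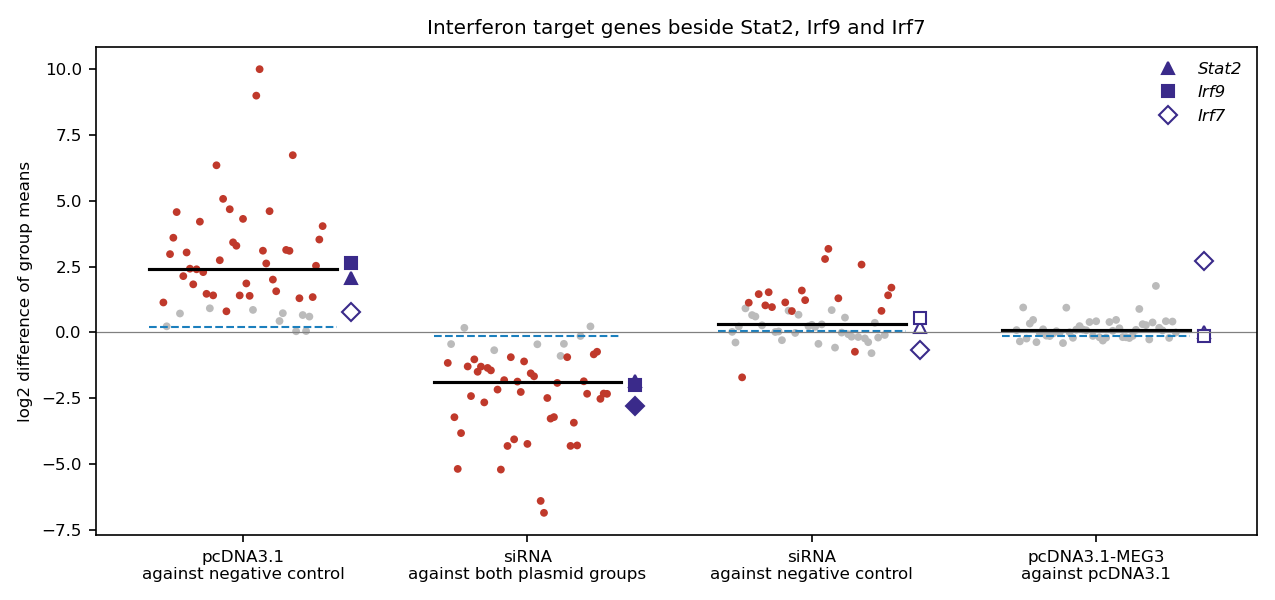
Log2 difference of group means for each of the 49 interferon target genes tested (points, called ones in red) in 4 comparisons, beside Stat2, Irf9 and Irf7 (triangle, square and diamond, filled where called). The black line is the median of the targets and the dashed line that of all probes tested. The targets lie mostly above 0 for pcDNA3.1 against the negative control (median 2.40) and below 0 for siRNA against the plasmids (median -1.87).

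Negative regulators of the pathway numbered 21 tested genes. Usp18, which binds IFNAR2 and removes ISG15, rose by 7.07 ± 0.20 (134-fold) in pcDNA3.1 against the negative control, fell by 4.56 in siRNA against the plasmids and rose by 2.60 in siRNA against the negative control. Socs4 rose by 1.82 ± 0.21 in the first of these, where 2 of 21 were called, against 17.1% of all probes. Of the regulators 1 rose and 4 fell in siRNA against the plasmids, a total near the 19.3% of all probes. Among the fallen, Pias4 (by 1.71, at least 1.88-fold) came after Usp18 in order of p. Pias4 passed the filter only through the plasmid arrays, where it is high, so its fall is a description. The comparison of siRNA with the negative control had 2 risen, among them Pias2 by 0.79, and 2 fallen, against 7.29% and 4.73% of all probes. Between the plasmid groups 0 were called.

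Of 25 Stat3 targets tested, 4 rose in pcDNA3.1 against the negative control, a share near the 17.1% of all probes (median 0.32, against 0.19 over all probes), led by Lcn2, an iron-scavenging protein (2.93 ± 0.19, adjusted p = 0.000985), and Vegfa, an angiogenic growth factor (1.08 ± 0.12). For siRNA against the plasmids 5 rose and 5 fell, against 10.4% and 8.89% of all probes (median -0.02 against -0.12), Lcn2 falling by 2.96 and Hp, haptoglobin, rising by 1.78. Against the negative control 5 rose in siRNA, against 7.29% of all probes (median 0.20 against 0.05), among them Hp (2.46) and Fos (1.79). Socs3, the feedback inhibitor that STAT3 induces, had group means of 3.16 to 3.31 and was not called. Between the plasmid groups 0 of the 25 were called.

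The genes whose profile over the 8 samples was nearest to a member's, among 16396 named genes and by the root-mean-square distance of log2 levels centred on their own means, were taken for the 3 members with the widest span. Nearest to Irf7 were Slfn2 (distance 0.39), Tap1, a peptide transporter of antigen presentation (0.63), and Insig1, a regulator of sterol synthesis (0.64). As genes picked for closeness to Irf7, all 3 had their highest group mean on the arrays labelled pcDNA3.1-MEG3. Slfn2 was at -1.26 there and at -3.31 on pcDNA3.1. Tap1 was at -2.69 and -4.45 and Insig1 at -2.81 and -4.38. Near Irf9 lay Plek, pleckstrin (0.11), and Ifih1, the sensor MDA5 (0.12). Ifih1 had group means of -0.08 in the negative control, 2.66 on pcDNA3.1, 2.46 on pcDNA3.1-MEG3 and 0.75 on siRNA. Nearest to Stat2 were A530032D15Rik (0.07), Phf11a (0.15) and Serpina6, a corticosteroid-binding globulin (0.15). The points share arrays and slides, so these distances are a description.

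Marker lists were read beside these results. All 10 myoblast markers were tested, and Myod1, the master factor of the lineage, was well above background on 12 of 12 arrays. Of these 6 rose in siRNA against the negative control, among them Myog (3.46 ± 0.15) and Chrna1 (1.40 ± 0.13), and 1, Myf5, fell by 2.87, against 7.29% and 4.73% of all probes. Against the plasmids 7 rose in siRNA (10.4% of all probes), Tnnt1 by 3.45 and Myog by 2.96, and in pcDNA3.1 against the negative control Myf5 fell at least 19.6-fold. Of 16 macrophage and leukocyte markers on the array 10 were tested. Csf1r, Adgre1, Itgam, Cd14, Lyz1 and Fcer1g were well above background on 12 of 12 arrays, Cx3cr1 on 11, Ptprc and Aif1 on 10 and Lyz2 on 5, while Spi1 and Tyrobp were on 2, Laptm5, Cd52 and H2-Aa on 1 and Itgax on 0. The summed signal of the 16, in units of the 75th percentile, was 3.17 to 3.78 on negative control arrays, 3.68 to 4.06 on pcDNA3.1, 3.75 to 3.98 on pcDNA3.1-MEG3 and on siRNA arrays it ran from 2.84 to below the lowest of the other groups. Of the 10 tested, 1 rose (Cd14, 0.78) and 1 fell (Lyz1, by 1.60) in pcDNA3.1 against the negative control, against 10.5% and 6.56% of all probes. In siRNA 3 rose and 1 fell against the plasmids, beside 10.4% and 8.89% of all probes. Relative to the negative control 1 rose and 1 fell in siRNA, beside 7.29% and 4.73%. The part of such cells in the Stat2, Irf9 and interferon target differences was not tested.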

How the data were processed

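RNA of 12 C2C12 samples was hybridised to single-colour Agilent arrays. The deposited scanner files hold the processed spot intensity and the well-above-background flags (other values), made with Agilent Feature Extraction 11.0.1.1 per the file headers. The deposited series table of 30732 probes holds values made by the authors on an unstated scale, with column medians of 276 to 277, and was an alternative. Control spots and outlier spots were left out, spots of a probe were averaged, and log2 intensity minus the array's 75th percentile was used. Probes that passed the filter on dim signal in some group (29611) were fitted with limma 3.58.1 in R 4.3.3 over all 4 groups, and p-values were adjusted over all probes tested. The fit was tested on simulated data.

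Replicates 1 and 3 of each group were averaged, giving 8 samples. Same-numbered arrays of different groups had deviations correlated at -0.0658 to 0.0382, so that the numbers do not pair them. Probes were named by accession through RefSeq (27234 of 39429). Motifs were searched in RefSeq promoter windows of GRCm38.p6. Where the dimmer group was not well above background on all arrays, "at least" gives a bound, for which the dim signal on an array was raised to that of its dimmest detected probe.

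The lead probe of a gene was its brightest. All member probes are reported, the second probe of Stat3 not in every comparison. Also given are the 3 genes of most similar profile for the 3 members of widest span. From each list the 2 called genes of smallest p in each comparison are given. One gene that the profile rule took is not reported here. The members and lists were chosen with earlier results of these data known. The planned normexp alternative was run on median spot signals, since the mean signal was not used here, and 6, 7 and 3 probes with extreme local background on pcDNA3.1 replicates 1 and 3 and siRNA replicate 2 took the array median, a choice made after seeing the data. Other alternatives were other scalings, filters, groupings of arrays, blocks and leaving out each sample. Counting each plasmid group as 1 sample was added after seeing the data. The alternatives for the count of interferon targets were also chosen after seeing the data.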

Additional observations from a re-analysis of the deposited data

How the results depend on the processing

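The calls of Stat2 and Irf9 in pcDNA3.1 against the negative control and in siRNA against the plasmids held under every alternative run but 1, each plasmid group as 1 sample, which was added after seeing the data and has fewer samples behind the spread. There limma called 0 member probes in all 4 comparisons (1 to 3 at an unadjusted p under 0.05), and probes called over the array were 0 for pcDNA3.1 against the negative control, 0 for pcDNA3.1-MEG3 against pcDNA3.1, 213 for siRNA against the plasmids and 188 for siRNA against the negative control. The alternatives that treat the 12 arrays as 12 samples count rescans apart. A fit without 1 sample leaves a lone sample that is assumed to vary like the other groups. Where no cause is given below, the cause was not tested.

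Member probes called in pcDNA3.1 against the negative control (2) numbered 5 with 12 arrays, 5 with the replicate block, 4 with median centring and 2 to 5 without 1 sample. In pcDNA3.1-MEG3 against pcDNA3.1 (0) they numbered 2 with 12 arrays, with the compared groups alone and with the replicate block, 1 with negative control arrays kept apart, 3 with slide and scan as a block and 0 to 0 without 1 sample. In siRNA against the plasmids (4) they numbered 7 with the compared groups alone, 2 with normexp and 3 to 3 without 1 sample. In siRNA against the negative control (0) they numbered 3 with 12 arrays, 2 with the replicate block, 0 to 4 without 1 sample, and 1 each with median centring, quantile normalisation, the series table, negative control arrays kept apart and probes well above background on every array.

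Over all probes, pcDNA3.1 against the negative control (5061) gave 14347 calls with 12 arrays, 13617 with the replicate block, 7717 with negative control arrays kept apart, 3317 with normexp and 634 to 11235 without 1 sample. For pcDNA3.1-MEG3 against pcDNA3.1 (2) the counts were 4379 with 12 arrays, 3457 with the replicate block, 25 with negative control arrays kept apart, 11 with normexp, 3694 with the compared groups alone, 13908 with slide and scan as a block, 5 with a trend in the prior, 25 with probes well above background on every array, and 0 to 0 without 1 sample. For siRNA against the plasmids (5700) they were 15411 with 12 arrays, 14921 with the replicate block, 11732 with the compared groups alone and 1982 to 5634 without 1 sample. For siRNA against the negative control (3552) they were 11929 with 12 arrays, 11241 with the replicate block, 188 with the compared groups alone, 5808 with negative control arrays kept apart, 2263 with no filter and 2130 to 9251 without 1 sample.

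Differences that changed sign were all uncalled in the fit used for the results above. Some were called in another setting, among them Irf5 in siRNA against the plasmids and Irf7 in siRNA against the negative control. In pcDNA3.1 against the negative control Irf1 was -0.0015 with 12 arrays and with the replicate block, -0.35 with median centring and -0.17 to 0.36 without 1 sample, and Irf3 was -0.34 with median centring and -0.20 to 0.43 without 1 sample. In pcDNA3.1-MEG3 against pcDNA3.1 Irf1 was 0.021, 0.039 and 0.045 and Irf3 0.0059, 0.046 and 0.050 with median centring, quantile normalisation and the series table. There Irf5 was -0.082 with normexp, and without 1 sample Irf5 was -0.022 to 0.14, Irf3 -0.14 to 0.043 and Stat2 -0.017 to 0.050. In siRNA against the plasmids Irf1 was 0.16 and Stat3 0.034 with median centring and Irf5 0.050 with normexp. In siRNA against the negative control Irf2 was -0.027 with median centring and Irf1 0.031 and Irf7 0.23 with normexp, while without 1 sample Irf1 was -0.26 to 0.26 and Irf3 -0.079 to 0.55. Irf7 signals near background limit its differences to bounds.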
